A study of Mus musculus with 23 samples.

Results

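Ribosomal protein pseudogenes with measurable counts were followed in RNA-seq of whole mouse hippocampus. Members were all genes whose symbol starts with Rpl or Rps and contains -ps and whose counts summed to at least 230 over the 23 libraries. Of 291 such symbols, 39 met this minimum, 106 had at least 1 count but fewer than 230, and 146 had 0 counts. The members were thus chosen by their summed count, and their levels are given as a description. Just inside the minimum were Rpl7-ps7 with 276 counts and Rps6-ps1 with 239, and just outside it were Rpl17-ps9 with 210 and Rpl26-ps6 with 204.

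The libraries came from P301S mice in hypoxia (n = 6), P301S mice in normoxia (n = 5), WT mice in hypoxia (n = 6) and WT mice in normoxia (n = 6). P301S is a mutation of human tau that causes frontotemporal dementia, and the exposure was chronic intermittent hypoxia by the title, repeated short falls in oxygen as in sleep apnoea. All 4 groups share a mixed strain background of C57Bl6 and Balbc, and neither the promoter of the transgene nor the age of the mice is stated in the labels. Whether each library is 1 animal is not stated either. The titles carry a number that 5 of the 6 WT normoxia libraries share, that 4 and 2 of the WT hypoxia libraries share, and that differs in every P301S library. What it marks is not stated, and p-values therefore describe only how much these libraries varied. In bulk tissue, fewer cells of a type and less RNA per cell cannot be told apart.

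The ribosome is built from ribosomal RNA and proteins encoded by the Rpl genes (large subunit) and the Rps genes (small subunit). Abundant mRNAs of these genes were often copied back into the genome as processed pseudogenes, which lack introns and lie far from the parent gene. Such copies are usually taken as non-functional, and a read from a stretch that parent and copy share could have come from either. An aligner then places the read at the better match or treats it as ambiguous, so the count of a pseudogene holds whatever reads were placed there and is uncertain as a measure of its own transcription.

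The members had 29 parent genes and lay on 18 chromosomes, with 6 on the X chromosome. The reference annotation calls 36 of them processed pseudogenes and the other 3 (Rpl9-ps6, Rpl36a-ps1 and Rpl10-ps3) protein coding. They were close copies. Their aligned sequence had a median identity of 99.32% to the parent transcript, from 87.54% (Rpl36a-ps3) to 100%, against a median of 95% for the 247 of 252 other Rpl and Rps -ps genes with an alignment. Of the members' 100-base windows, the length of 1 read, a median of 72.65% also occurred without mismatch in a transcript of another gene, against 4.63% in the other -ps genes. For 5 members (Rpl31-ps8, Rpl10a-ps1, Rps13-ps2, Rpl27-ps3 and Rpl15-ps3) every such window was found in the parent. None of the 39 members lay wholly under another gene, against 84 of the 252 others. Reads that overlap several genes are by default left out of the counts, so a gene wholly under another could hardly reach the minimum. An open reading frame at least as long as the parent's coding sequence was present in 21 members and one under 50% of that length in 13. These are descriptions, with no test.

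**Figure D1:**
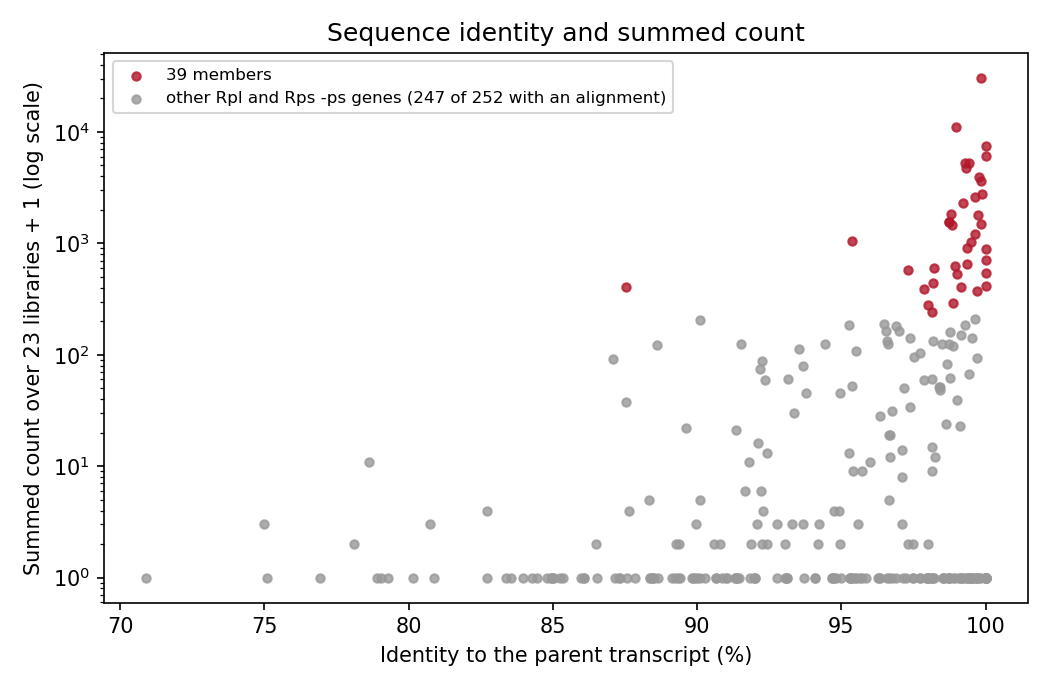
Identity to the parent transcript (x axis, percent) against the summed count over the 23 libraries plus 1 (y axis, log scale) for the 39 members and the other Rpl and Rps -ps genes. The members sit at the right, with a median identity of 99.32%, while genes with 0 counts are spread over the whole range of identity.

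Stretches of 4 members are shown beside the coding sequence of their parent, since the results below turn on them. Rpl19-ps11 separated the genotypes most clearly, Rps19-ps3 moved apart from its parent in the other direction, and Rps2-ps13 and Rps18-ps3 were highest in the libraries where the parent was lowest. For each, the stretch of 120 bases with the most mismatches inside the parent's coding sequence is printed 5′ to 3′ from the GENCODE transcripts of GRCm38, with mismatched bases in capitals. The stretches lie at chr8:19493007-19493126 (plus strand) for Rpl19-ps11, chr4:147821942-147822061 (minus strand) for Rps19-ps3, chrX:52898588-52898707 (plus strand) for Rps2-ps13 and chr8:107262819-107262938 (minus strand) for Rps18-ps3.
Rpl19-ps11: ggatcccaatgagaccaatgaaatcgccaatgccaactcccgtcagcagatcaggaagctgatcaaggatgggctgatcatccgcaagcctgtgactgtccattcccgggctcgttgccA
Rpl19: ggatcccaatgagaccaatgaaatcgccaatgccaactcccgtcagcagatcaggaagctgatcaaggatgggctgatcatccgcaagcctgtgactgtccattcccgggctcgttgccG
Rps19-ps3: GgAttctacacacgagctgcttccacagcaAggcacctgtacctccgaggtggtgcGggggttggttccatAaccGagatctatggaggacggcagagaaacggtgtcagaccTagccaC
Rps19: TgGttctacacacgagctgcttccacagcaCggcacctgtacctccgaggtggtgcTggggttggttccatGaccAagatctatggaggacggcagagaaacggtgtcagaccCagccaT
Rps2-ps13: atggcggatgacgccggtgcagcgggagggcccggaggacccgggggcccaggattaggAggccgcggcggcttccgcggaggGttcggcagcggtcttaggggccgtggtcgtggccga
Rps2: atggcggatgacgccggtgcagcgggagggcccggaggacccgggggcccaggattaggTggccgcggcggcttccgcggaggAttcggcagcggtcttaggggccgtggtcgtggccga
Rps18-ps3: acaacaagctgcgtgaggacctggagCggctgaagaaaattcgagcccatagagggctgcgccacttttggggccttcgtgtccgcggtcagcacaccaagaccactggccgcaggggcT
Rps18: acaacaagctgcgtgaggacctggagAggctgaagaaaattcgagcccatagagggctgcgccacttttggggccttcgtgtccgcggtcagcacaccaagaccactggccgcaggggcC
In these stretches Rpl19-ps11 differs from its parent at 1 base, Rps2-ps13 and Rps18-ps3 at 2, and Rps19-ps3 at 8. Over its whole alignment Rpl19-ps11 has 1 mismatch in 591 bases, Rps2-ps13 has 7 in 882, Rps18-ps3 has 3 in 456, and Rps19-ps3 has 14 mismatches and 6 gap bases in 432. A read that covers none of the differing bases matches both copies equally.

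Total counts per library were 23.8 to 25.8 M in P301S hypoxia, 23.1 to 25.4 M in P301S normoxia, 19.1 to 24.9 M in WT hypoxia and 22.8 to 25.8 M in WT normoxia. Neuronal markers were high in every group. The summed level of 14 choroid plexus markers varied widely within each group, with 307 to 4103 CPM (counts scaled to a common library size) in P301S hypoxia, 1191 to 5636 in P301S normoxia, 342 to 4960 in WT hypoxia and 291 to 5730 in WT normoxia. The summed level of 4 blood markers was 35.9 to 61.2 CPM in P301S hypoxia and 55.9 to 129.2 CPM in P301S normoxia, against 51.5 to 157.2 CPM in WT hypoxia and 68.8 to 94.2 CPM in WT normoxia, and its part in the results was not tested. Mouse tau (Mapt) had 611 to 780 CPM in P301S and 642 to 741 CPM in WT, which does not check the human transgene, while Prn, a gene at the prion locus, had 2.56 to 5.79 CPM in P301S and 0.0413 to 0.4 CPM in WT, with no overlap. All 39 members were kept at the low-count filter, and 17788 genes were tested in all.

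Together the members took a small share of the counts. The share ran from 0.0124% to 0.0240% in P301S hypoxia (median 0.0172%) and from 0.0131% to 0.0194% in P301S normoxia (median 0.0180%). It ran from 0.0188% to 0.0261% in WT hypoxia (median 0.0229%) and from 0.0203% to 0.0222% in WT normoxia (median 0.0218%). Rpl3-ps1, a copy of the gene of a protein near the peptidyl transferase centre, held 28.3% of the members' 107600 counts. Without it the shares were 0.0103% to 0.0145% in P301S hypoxia and 0.0107% to 0.0135% in P301S normoxia, against 0.0153% to 0.0180% in WT hypoxia and 0.0140% to 0.0185% in WT normoxia. Within normoxia the ranges of the genotypes did not overlap with or without Rpl3-ps1. Within hypoxia they overlapped with Rpl3-ps1 and did not overlap without it. Scaled by length, mean levels over all libraries ran from 0.581 CPM per kilobase (Rps6-ps1) to 45.4 CPM per kilobase (Rpl3-ps1), with Rps10-ps2 at 40.3, Rpl31-ps8 at 36.1 and Rpl34-ps1 at 27.0 CPM per kilobase.

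P301S hippocampi had lower counts than WT at most of the pseudogenes, and no member was called higher unless a length and GC trend was removed. Averaged over normoxia and hypoxia, 25 of the 39 members fell in P301S (edgeR quasi-likelihood test, Benjamini-Hochberg adjusted p below 0.05), against a background of 7.76% of all 17788 tested genes called lower. The median log2 fold change of the members was -0.45, with 37 of 39 negative, against 0.01 for all tested genes. Of the 23 large subunit copies, 14 fell, and of the 16 small subunit copies, 11 fell. All 4 copies of Rpsa, all 3 of Rpl9 and both copies each of Rpl17, Rpl36a, Rps10 and Rps13 fell, while neither copy of Rpl3 passed the test (Rpl3-ps1 -0.34, SE 0.26, adjusted p = 0.421, and Rpl3-ps2 -0.36, SE 0.14, adjusted p = 0.102).

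The parent genes were lower in P301S as well, by less. Of the 28 tested parents, 24 fell, with a median of -0.20, and of the 74 tested genes of a list of cytosolic ribosomal proteins, 60 fell, with a median of -0.22. Of the 25 called members, 23 had a parent that also fell, and all 25 had a more negative fold change than the parent. The 25 were picked by their own fall in these libraries, and that choice favours this order. Among all 38 members with a tested parent, 33 had a lower log2 ratio to it in P301S, averaged over conditions. The same held for 51 of 76 other pseudogene and parent pairs. Other short genes and pseudogenes were lower too, to a smaller extent. Among 733 other tested genes no longer than the longest member (1214 bases), 146 fell and 4 rose, with a median of -0.18, and among 629 other processed pseudogenes 129 fell and 3 rose, with a median of -0.21. Once trends with length and GC content had been taken out of each library, 14 members fell and 1 rose (Rps19-ps3, 0.37, adjusted p = 0.041), and the members' median was -0.29. In that fit 5.59% of all tested genes were called lower, and their median was -0.006. Across the members, which are not independent, the fold change was nearly unrelated to identity to the parent (Spearman's rho 0.03, n = 39) and to the parent's own fold change (0.07, n = 38).

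**Figure D2:**
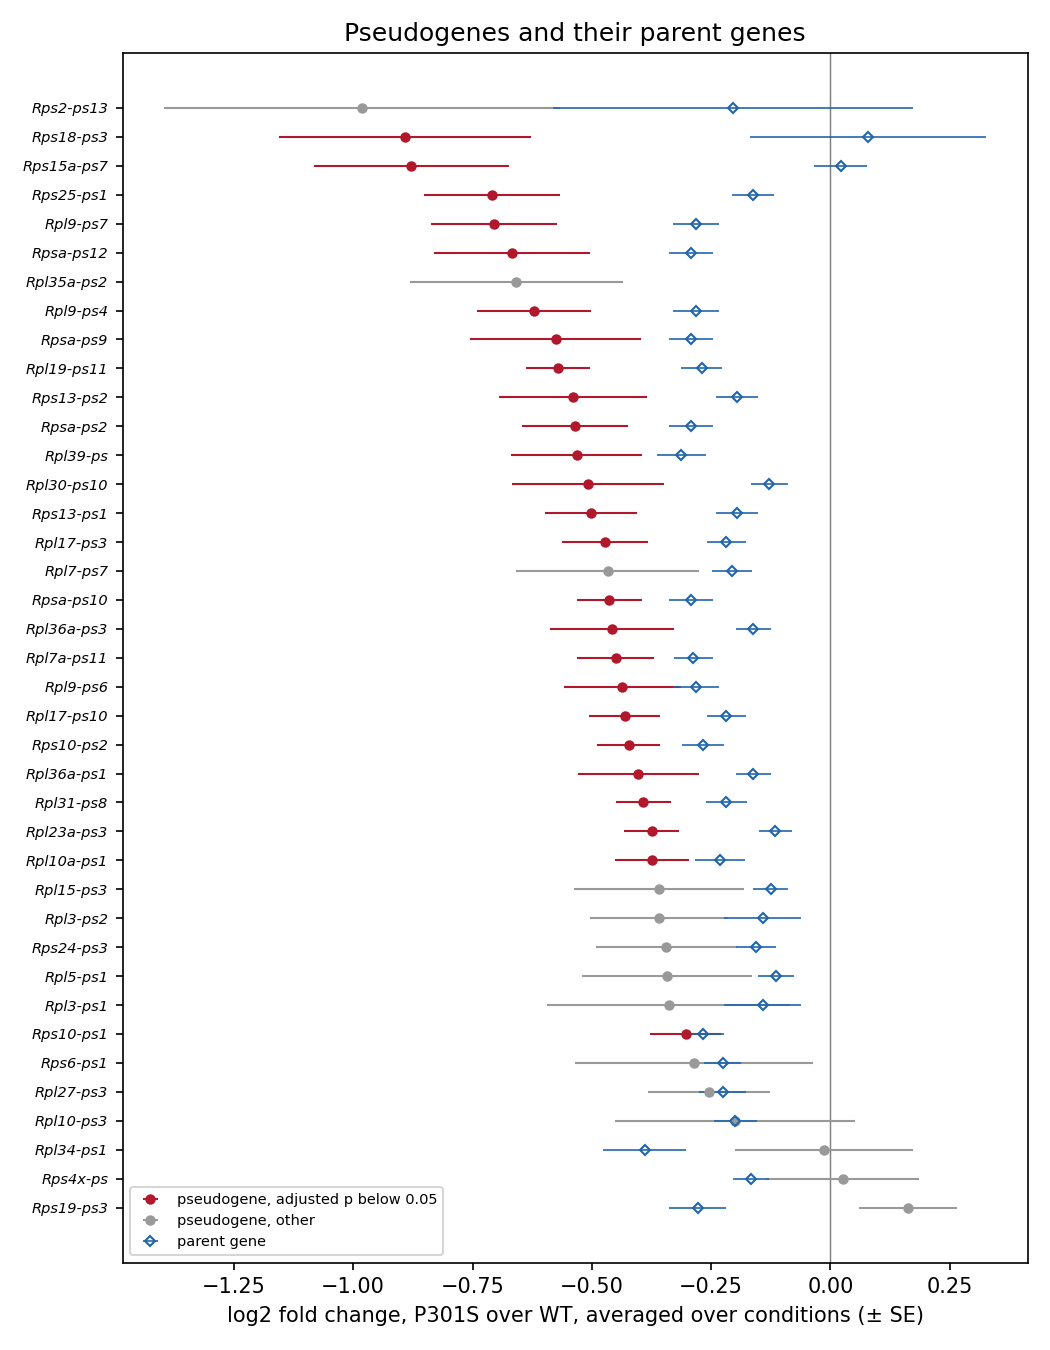
Log2 fold change of P301S over WT, averaged over conditions, for each of the 39 members (circles, red where the adjusted p is below 0.05) and its parent (open diamonds), with bars of 1 standard error. The 25 called members are all negative and lie left of their parents, and Rps19-ps3 is at the other end with 0.16. The 25 were called by their own fall, which favours that order.

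In normoxia alone, 9 members fell in P301S and none rose, where 3.78% of all tested genes were called lower and 6.35% in either direction. These were Rpl17-ps10, Rpl19-ps11, Rpl23a-ps3, Rpl36a-ps3, Rpl7a-ps11, Rpl9-ps7, Rps10-ps2, Rps25-ps1 and Rpsa-ps10. The median of the 39 members was -0.38, against 0.01 for all tested genes. In 5 members every P301S library lay below every WT library in normoxia (background 1.72%). The count rested on single libraries. It was 3 without P301S normoxia replicate 2, 3 or 5, 4 without WT normoxia replicate 6, 5 without P301S normoxia replicate 4 or WT normoxia replicate 3, and 15 without P301S normoxia replicate 1. The share of all tested genes called lower moved too. Without P301S normoxia replicates 2, 3 and 5 it was 1.1%, 1.69% and 1.76% in turn. Without WT normoxia replicate 6 it was 2.22%, and without P301S normoxia replicate 1 it was 6.83%. Without P301S normoxia replicate 4 or WT normoxia replicate 3 it was 1.9% or 2.49%. With the length and GC trend removed, 0 members fell and 1 rose, where 2.06% of all tested genes were called lower.

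In hypoxia, 15 members fell in P301S and none rose, where 1.34% of all tested genes were called lower. The median was -0.53, against 0.0004 for all tested genes, and all 39 members had a negative fold change. The groups did not overlap in 9 members (background 1.25%). The 7 members called in both conditions were Rpl17-ps10, Rpl19-ps11, Rpl23a-ps3, Rpl7a-ps11, Rpl9-ps7, Rps10-ps2 and Rpsa-ps10. The count was 5 without WT hypoxia replicate 2, and 8, 6 and 7 without P301S hypoxia replicates 2, 3 and 4 in turn. In these fits 0.389%, 0.603%, 0.558% and 0.727% of all tested genes were called lower. The count of members was 1 without the 6 libraries lowest in choroid plexus markers, where 0.0501% of all tested genes were called lower. It was 5, all lower, with the length and GC trend removed, where 1.15% of all tested genes were called lower.

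Rpl19-ps11, a copy of a large subunit gene on chromosome 8 (GRCm38, 19492936 to 19493526), had the lowest p. It had 4.49 to 6.12 CPM (median 4.85) in P301S hypoxia and 6.46, 4.72, 5.62, 6.03 and 4.73 CPM in P301S normoxia. It had 6.77 to 8.84 CPM (median 8.44) in WT hypoxia and 6.98 to 8.14 CPM (median 7.41) in WT normoxia. Every one of the 11 P301S libraries lay below every one of the 12 WT libraries, which held for 0.146% of all tested genes and for no other member. The log2 fold change was -0.70 in hypoxia (SE 0.09, adjusted p = 0.000316) and -0.44 in normoxia (SE 0.10, adjusted p = 0.0112). Gm27288 overlaps 13.5% of Rpl19-ps11, where reads would not be counted.

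Among small subunit copies, Rpsa-ps10 derives from the gene of the small subunit protein also known as the laminin receptor. It had 6.41 to 8.34 CPM (median 7.29) in P301S hypoxia and 9.04, 6.23, 6.91, 7.60 and 6.34 CPM in P301S normoxia, against 9.33 to 12.3 CPM (median 10.5) in WT hypoxia and 8.19 to 10.1 CPM (median 9.51) in WT normoxia. In hypoxia the genotypes did not overlap, and in normoxia P301S replicate 1 lay inside the WT range. Rpsa-ps10 fell by 0.55 on the log2 scale in hypoxia (SE 0.09, adjusted p = 0.00401) and by 0.38 in normoxia (SE 0.10, adjusted p = 0.0263). Rps10-ps2 had 14.8 to 21.6 CPM (median 16.5) in P301S hypoxia and 20.02, 14.7, 15.3, 19.5 and 14.7 CPM in P301S normoxia. The WT values of Rps10-ps2 were 21.4 to 24.3 CPM (median 22.6) in hypoxia and 20.3 to 26.0 CPM (median 22.9) in normoxia. It did not overlap in normoxia, where its log2 fold change was -0.43 (SE 0.10, adjusted p = 0.0117), and overlapped by 1 P301S library in hypoxia.

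Among large subunit copies, Rpl31-ps8 is identical to its parent over all 378 bases. It had 9.70 to 13.1 CPM (median 10.9) in P301S hypoxia and 14.4, 12.0, 12.7, 12.5 and 10.5 CPM in P301S normoxia, against 14.7 to 17.6 CPM (median 16.2) in WT hypoxia and 13.2 to 15.9 CPM (median 15.1) in WT normoxia. It fell in hypoxia (-0.53, SE 0.08, adjusted p = 0.00115), where the genotypes did not overlap, and did not pass the test in normoxia (-0.25, SE 0.08, adjusted p = 0.0679). Rpl23a-ps3, a copy of the gene of a protein at the exit of the ribosomal tunnel, had 5.34 to 7.11 CPM (median 6.33) in P301S hypoxia and 6.24, 5.97, 5.99, 6.60 and 5.91 CPM in P301S normoxia. The WT values of Rpl23a-ps3 were 7.19 to 8.61 CPM (median 8.26) in hypoxia and 6.94 to 9.34 CPM (median 7.79) in normoxia. Within each condition the genotypes did not overlap. Rpl17-ps10, whose parent protein also lies near the tunnel exit, had 6.34 to 10.1 CPM (median 7.63) in P301S hypoxia and 9.43, 7.64, 9.20, 8.435 and 6.855 CPM in P301S normoxia. Its WT values were 9.62 to 12.8 CPM in hypoxia and 9.54 to 11.95 CPM (median 10.7) in normoxia, with no overlap in normoxia.

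**Figure D3:**
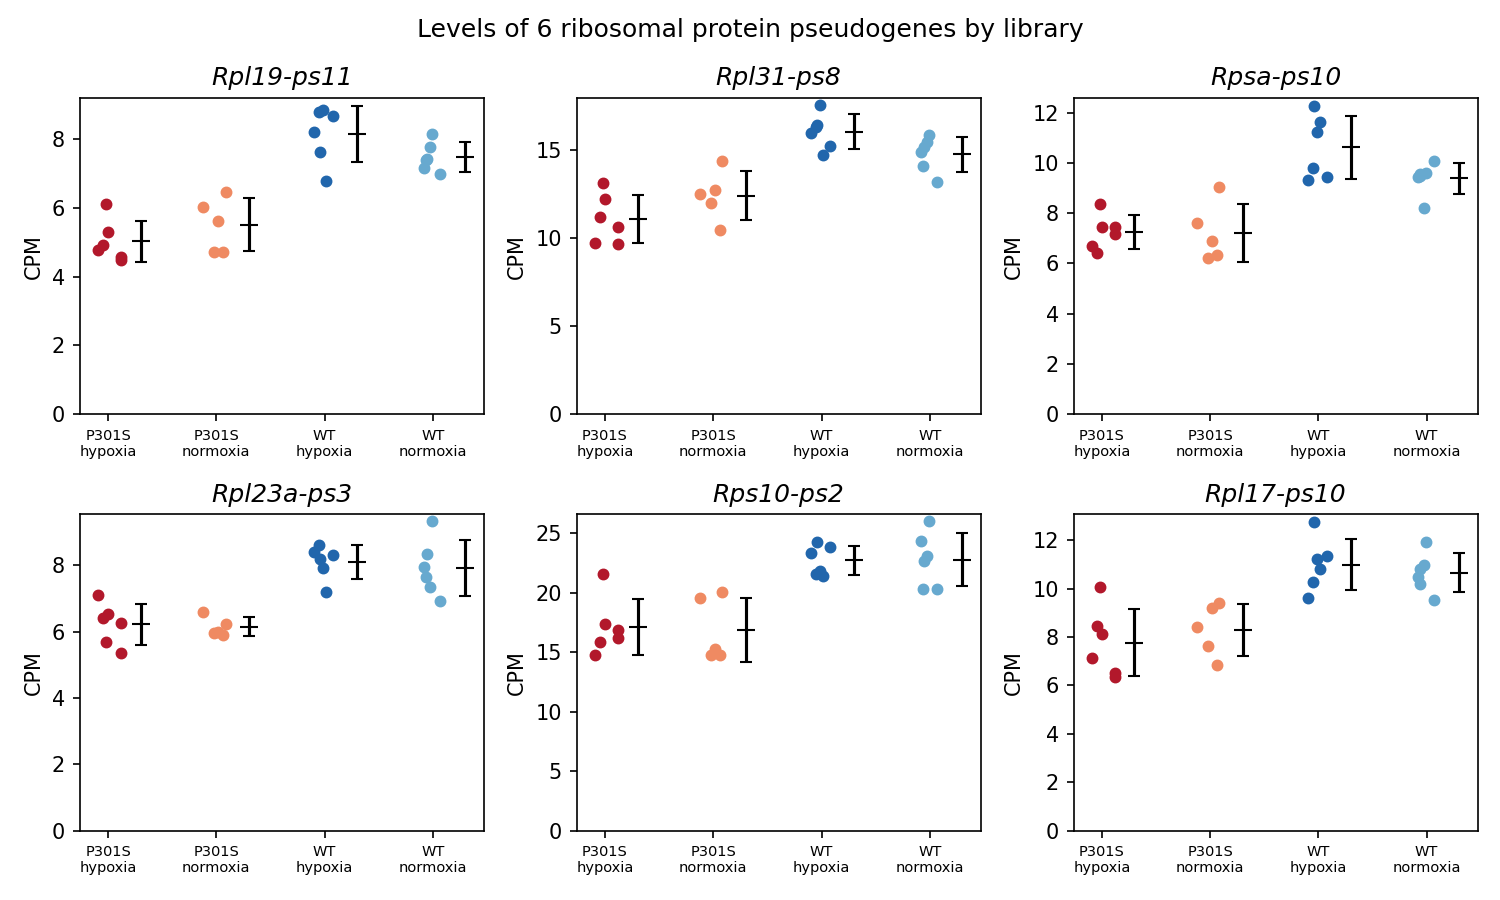
CPM of 6 called members in each library (points), with mean ± SD of the group (bars), for P301S hypoxia, P301S normoxia, WT hypoxia and WT normoxia. P301S libraries sit below WT libraries with no overlap for Rpl19-ps11, and with an overlap of few libraries for the others.

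Other called members fell in P301S too. Rpl9-ps7 averaged 1.53 ± 0.236 CPM in P301S hypoxia and 2.47 ± 0.338 CPM in WT hypoxia, and 1.25 ± 0.426 CPM in P301S normoxia and 2.04 ± 0.502 CPM in WT normoxia. Averaged over conditions its log2 fold change was -0.70 (SE 0.13, adjusted p = 0.00146), and those of the other Rpl9 copies were -0.62 for Rpl9-ps4 (adjusted p = 0.00173) and -0.44 for Rpl9-ps6 (adjusted p = 0.0208). Rpl9-ps6 lost the call with the length and GC trend removed (adjusted p = 0.12) and without the 6 libraries lowest in choroid plexus markers (adjusted p = 0.0961). Rpl7a-ps11 on the X chromosome was at -0.45 (adjusted p = 0.000995), Rpl17-ps3 at -0.47 (adjusted p = 0.00173), Rps13-ps1 at -0.50 (adjusted p = 0.0018) and Rpl10a-ps1 at -0.37 (adjusted p = 0.00314). Rpl10a-ps1 lost the call with the trend removed (adjusted p = 0.0671). The 2 members just inside the count minimum did not pass the test, with -0.47 for Rpl7-ps7 (adjusted p = 0.109) and -0.29 for Rps6-ps1 (adjusted p = 0.497). Of the 14 members not called in any edgeR comparison, Rpl35a-ps2 was at -0.66 (adjusted p = 0.0526), and its parent could not be set beside it because Gm17106 covers 100% of Rpl35a.

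Hypoxia was not accompanied by a called change at any member in either genotype. In WT, 0 of 39 members were called and 0 had an unadjusted p below 0.05, with a median of 0.12 and 0.0731% of all tested genes called, 0.045% lower. In P301S, 0 were called and 3 had an unadjusted p below 0.05, with a median of -0.01 and 0.41% of all tested genes called, 0.23% lower. Averaged over genotypes, 0 were called, 1 had an unadjusted p below 0.05, and 1.33% of all tested genes were called, 0.675% lower. DESeq2 called 0 members in each of these comparisons as well, but it gave no adjusted p for 27 of the 39 members in P301S and for 19 averaged over genotypes. The lowest p in WT was that of Rpsa-ps10 (0.18, SE 0.09, adjusted p = 0.465), and Rpl9-ps6 (0.31, SE 0.16, adjusted p = 0.467) and Rpl9-ps7 (0.27, SE 0.17, adjusted p = 0.537) came next. In P301S these were Rpl15-ps3 (-0.60, SE 0.27, adjusted p = 0.321), Rps2-ps13 (1.39, SE 0.66, adjusted p = 0.362) and Rpl35a-ps2 (-0.73, SE 0.35, adjusted p = 0.362). Rpl15-ps3 averaged 0.523 ± 0.214 CPM in P301S hypoxia and 0.802 ± 0.235 CPM in P301S normoxia.

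The genotype difference was not shown to depend on hypoxia. The interaction, the hypoxia effect in P301S minus that in WT, was called by edgeR for 0 of 39 members, where 0.0394% of all tested genes were called and 3 members had an unadjusted p below 0.05. DESeq2 called 0 and gave no adjusted p for 13 of the 39 members. The 3 were Rpl31-ps8 (-0.28, SE 0.12, adjusted p = 0.448), Rpl15-ps3 (-0.81, SE 0.36, adjusted p = 0.484) and Rps19-ps3 (-0.45, SE 0.21, adjusted p = 0.5).

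Whether a pseudogene moved apart from its parent was tested on the log2 ratio of both CPM values within each library, with limma over all 114 pseudogene and parent pairs of the series with both genes tested. Of these pairs, 38 were members. Averaged over conditions, 10 member pairs fell in P301S and 1 rose, where 13.2% of the 114 pairs were called lower and 14% called in all. The median difference was -0.24 for the 38 member pairs and -0.10 for the other 76, of which 5 fell and 0 rose. The pairs were not refitted with the length and GC trend removed, so the part of that trend in these calls was not tested. In hypoxia alone 8 of the 38 member pairs fell, as did 8 of the other 76, so that 14% of the 114 were called lower. In normoxia alone limma called 0 of all 114 pairs. There 10 member pairs and 11 of the other 76 had an unadjusted p below 0.05. For hypoxia averaged over genotypes and for the interaction, 0 of all 114 pairs were called. At an unadjusted p below 0.05 were 0 member pairs and 6 of the other 76 for averaged hypoxia. For the interaction these were 5 member pairs and 5 of the other 76.

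The ratio of Rpl19-ps11 to Rpl19 averaged -3.98 ± 0.06 in P301S hypoxia and -3.58 ± 0.18 in WT hypoxia (SD, n = 6 each), and -3.78 ± 0.09 in P301S normoxia (n = 5) and -3.59 ± 0.07 in WT normoxia (n = 6), on the log2 scale. The averaged difference was -0.30 (SE 0.05, adjusted p = 0.000929). Rps25-ps1, a copy of a small subunit gene, had the difference -0.53 (SE 0.14, adjusted p = 0.0106). Its level averaged 0.901 ± 0.327 CPM in P301S hypoxia and 1.46 ± 0.209 CPM in WT hypoxia, and 0.799 ± 0.176 CPM in P301S normoxia and 1.32 ± 0.187 CPM in WT normoxia. Rps15a-ps7 had -0.83 (SE 0.25, adjusted p = 0.0299), with 0.913 to 2.79 CPM in P301S hypoxia and 1.59 to 2.66 CPM in P301S normoxia, against 2.33 to 5.25 CPM in WT hypoxia and 1.54 to 5.13 CPM in WT normoxia. The genotypes of Rps15a-ps7 overlapped in both conditions. Rpl23a-ps3 (-0.25), Rpl17-ps10 (-0.22), Rpl17-ps3 (-0.25), Rps13-ps1 (-0.29), Rpl31-ps8 (-0.18), Rpsa-ps10 (-0.17) and Rpl9-ps7 (-0.40) made up the rest of the 10. Rpl9-ps7 lost this call in 11 of 23 fits with 1 library left out, with adjusted p between 0.0514 and 0.0722 (P301S hypoxia replicates 2 and 5, P301S normoxia 3 and 5, WT hypoxia 3, 5 and 6, and WT normoxia 1, 3, 5 and 6). Rps15a-ps7 lost it without P301S normoxia replicate 1 (adjusted p = 0.0624) or WT normoxia replicate 5 (adjusted p = 0.0517), and Rps13-ps1 without P301S normoxia replicate 4 (adjusted p = 0.0503) or WT hypoxia replicate 5 (adjusted p = 0.0559). Without the 6 libraries lowest in choroid plexus markers 4 of the 38 pairs were called. The calls of Rpl17-ps10, Rpl17-ps3, Rpl31-ps8, Rpl9-ps7, Rps13-ps1, Rps25-ps1 and Rpsa-ps10 were lost there, with adjusted p from 0.0983 (Rps25-ps1) to 0.18 (Rpl17-ps3).

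Rps19-ps3 was the only member pair called higher in P301S, while 33 of the 38 member pairs had a negative averaged difference. Rpl34-ps1 also had a higher ratio to its parent, without a call. That ratio averaged -1.55 ± 0.49 in P301S and -1.99 ± 0.73 in WT (log2 scale, SD). Rps19, the parent of Rps19-ps3, encodes a small subunit protein whose gene is mutated in Diamond-Blackfan anaemia. The pseudogene had 1.22 to 2.30 CPM (median 1.87) in P301S hypoxia and 2.37, 2.45, 2.12, 2.18 and 1.89 CPM in P301S normoxia, against 1.39 to 2.29 CPM (median 2.01) in WT hypoxia and 1.34 to 2.03 CPM (median 1.69) in WT normoxia. It was not called by itself (0.16, SE 0.10, adjusted p = 0.322), while Rps19 fell by 0.28 (SE 0.06, adjusted p = 0.00416), and the ratio averaged over conditions was higher in P301S by 0.44 (SE 0.12, adjusted p = 0.0121). Within conditions the ratio difference was 0.20 in hypoxia (SE 0.16, adjusted p = 0.405) and 0.67 in normoxia (SE 0.17, adjusted p = 0.0537), and neither passed the test. The pseudogene's own log2 fold change was -0.06 in hypoxia and 0.39 in normoxia. Of its 100-base windows 7.95% occur in the parent, so most reads can be told apart from those of Rps19.

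**Figure D4:**
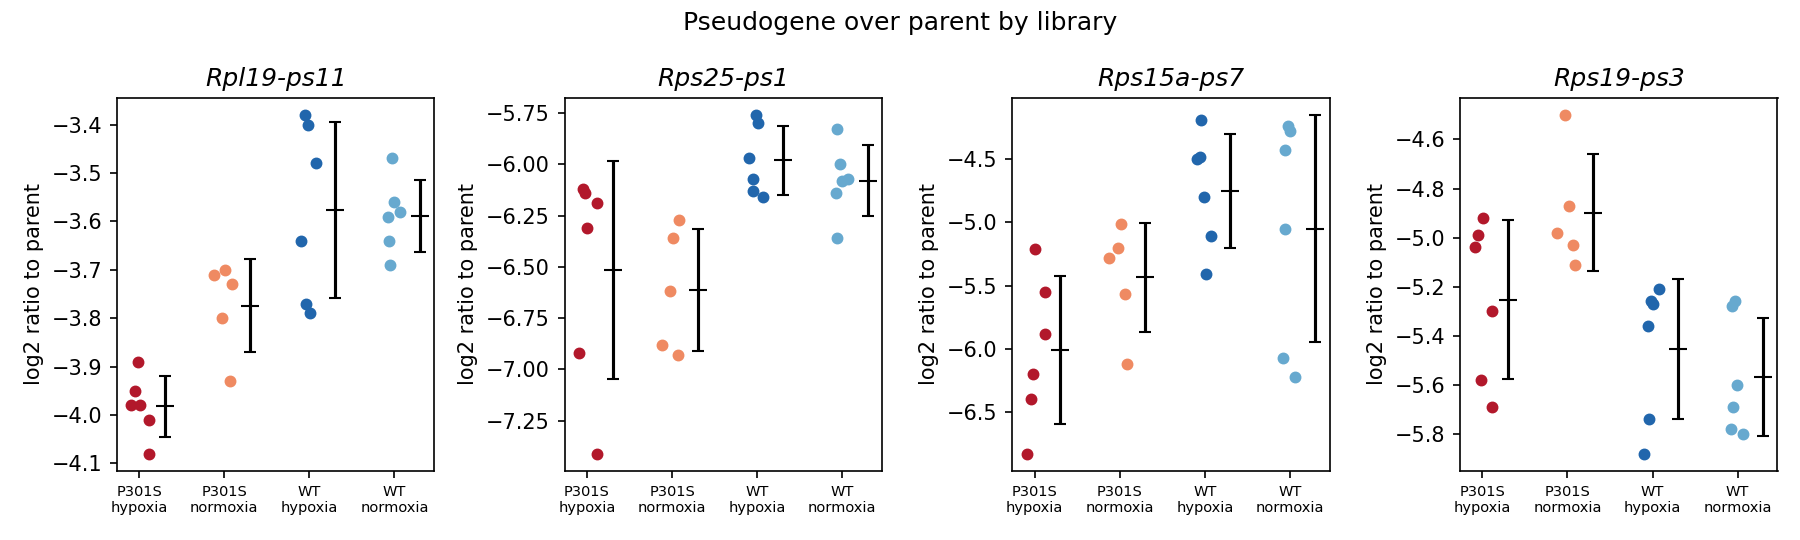
Log2 ratio of pseudogene CPM to parent CPM in each library (points), with mean ± SD (bars), for Rpl19-ps11, Rps25-ps1, Rps15a-ps7 and Rps19-ps3 in P301S hypoxia, P301S normoxia, WT hypoxia and WT normoxia. The ratio is lower in P301S for the first 3 and higher for Rps19-ps3, and the axes do not start at 0.

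A few members varied between libraries far more than the genotype difference. The 6 with the highest edgeR tagwise dispersion were Rps2-ps13 (0.511), Rpl3-ps1 (0.176), Rps18-ps3 (0.161), Rpl10-ps3 (0.147), Rps15a-ps7 (0.107) and Rpl34-ps1 (0.0937). Over the 23 libraries the highest level was 21.8 times the lowest for Rps2-ps13, 7.54 times for Rps18-ps3 and 4.32 times for Rpl3-ps1. As a group the members were not unusual, with a median dispersion percentile of 46.3 among tested genes of like level, and 3 members above the 90th.

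Rps2-ps13 lies on the X chromosome (GRCm38, 52898588 to 52899469), and its parent Rps2, the gene of a protein at the mRNA entry of the small subunit, on chromosome 17. Taken jointly, the levels of Rps2-ps13 and Rps2 ran in opposite order over 3 sets of libraries, with no wide gap in Rps2-ps13 between the first and the next set and none in Rps2 between the next and the last. In 9 libraries Rps2-ps13 was at 5.72 to 9.36 CPM, and these were the 9 with the lowest Rps2, at 16.1 to 23.6 CPM. In the next 9 libraries Rps2-ps13 was at 2.02 to 4.67 CPM and Rps2 at 45.5 to 72.1 CPM. In the last 5 libraries Rps2-ps13 was at 0.430 to 0.924 CPM, and Rps2 at 75.9 to 117.7 CPM. The 9 highest libraries were 3 of P301S hypoxia, 0 of P301S normoxia, 2 of WT hypoxia and 4 of WT normoxia, and the 5 lowest were 0, 2, 2 and 1 of the same groups. Between genotypes Rps2-ps13 was not called (-0.98, SE 0.42, adjusted p = 0.124), nor was Rps2 (-0.20, SE 0.38, adjusted p = 0.779).

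Rps18-ps3 on chromosome 8 and its parent Rps18 on chromosome 17, the gene of a protein in the head of the small subunit, also ran opposite. The 4 libraries with the highest Rps18-ps3, at 2.11 to 2.48 CPM, were the 4 with the lowest Rps18, at 24.3 to 27.9 CPM, and were all WT (WT normoxia replicates 1, 3 and 4 and WT hypoxia replicate 3). In the other 19 libraries Rps18-ps3 was at 0.329 to 1.78 CPM and Rps18 at 45.9 to 100.7 CPM. Rps18-ps3 was called lower in P301S (-0.89, SE 0.26, adjusted p = 0.0286), while Rps18 was at 0.08 (SE 0.25, adjusted p = 0.874). The part of these 4 libraries in that call was not tested. Rps18-ps3 lost the call without WT hypoxia replicate 3 (-0.74, adjusted p = 0.0544) and without P301S normoxia replicate 2 (-0.88, adjusted p = 0.0517) or 5 (-0.81, adjusted p = 0.0602). It also lost it without the 6 libraries lowest in choroid plexus markers (adjusted p = 0.0767) and with the length and GC trend removed (adjusted p = 0.127).

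Rpl34-ps1 on chromosome 6, a copy of a large subunit gene, was at 5.39 to 5.96 CPM in 4 libraries, which were the 4 with the highest Rpl34, at 39.04 to 43.3 CPM. They were WT normoxia replicates 1, 3 and 5 and WT hypoxia replicate 3. In the other 19 libraries Rpl34-ps1 was at 7.29 to 16.6 CPM and Rpl34 at 19.3 to 36.9 CPM. Rpl34-ps1 did not differ detectably between genotypes (-0.01, SE 0.19, adjusted p = 0.974), while Rpl34 fell in P301S (-0.39, SE 0.09, adjusted p = 0.00547). The 4 libraries with the highest Rpl34 were all WT, and their part in the call of Rpl34 was not tested. Rpl3-ps1, on the X chromosome, was at 22.3 to 24.7 CPM in 4 P301S libraries and at 32.5 to 36.5 CPM in 3 WT libraries, and at 52.2 to 96.2 CPM in the other 16. Its parent Rpl3 was at 277.6 to 294.3 CPM in the 4, 332.2 to 349 CPM in the 3 and 204.4 to 314.6 CPM in the 16. Of the 38 member pairs, Rps2-ps13, Rps18-ps3 and Rpl34-ps1 were the 3 in which some number of libraries between 3 and 20 with the highest pseudogene were the same libraries as those with the lowest parent. In 6 other pairs (Rpl31-ps8, Rpl17-ps10, Rpsa-ps10, Rpl17-ps3, Rpl7a-ps11 and Rpsa-ps2) such a set joined the highest pseudogene with the highest parent. This rule asks for identical sets over both genotypes, so a pair that runs opposite in only some libraries is not counted. What sets these levels was not tested, and all groups carry the mixed strain background.

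**Figure D5:**
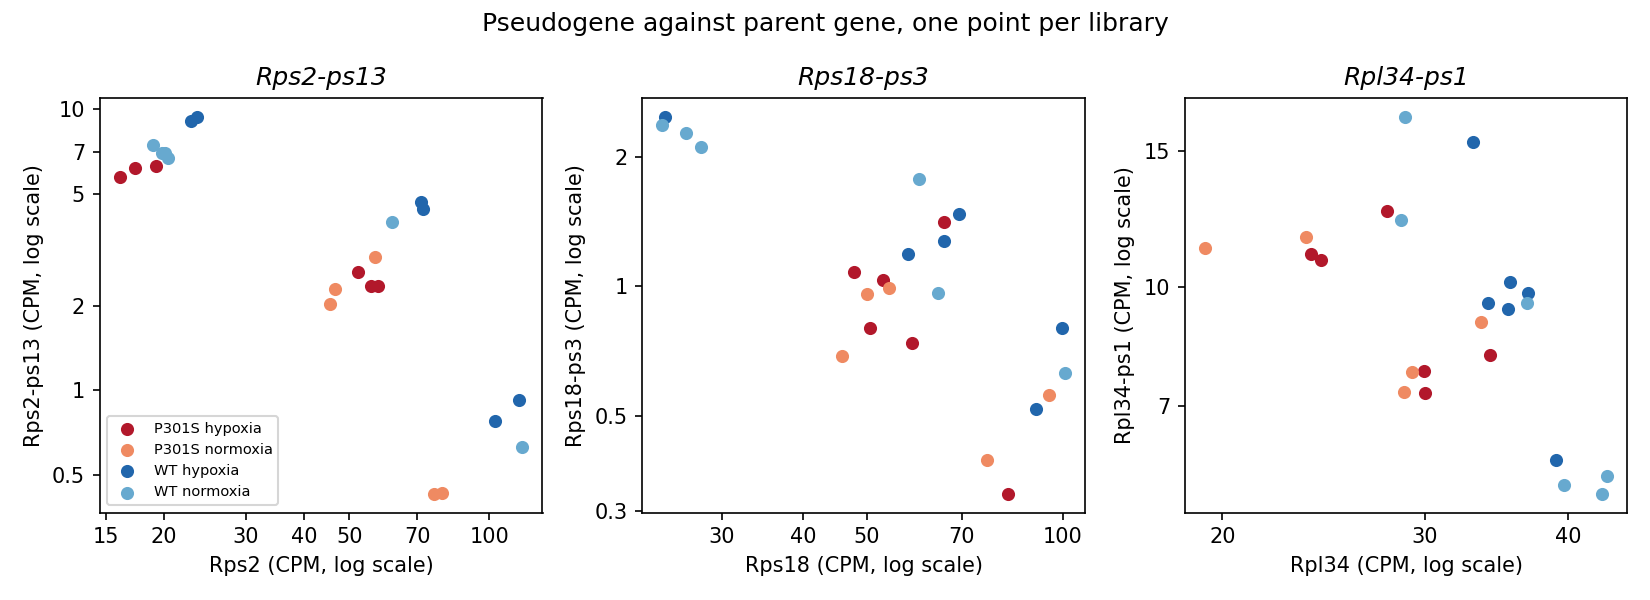
CPM of Rps2-ps13, Rps18-ps3 and Rpl34-ps1 (y axes, log scale) against the CPM of their parents (x axes, log scale), with 1 point per library coloured by group. Rps2-ps13 and Rps2 jointly form 3 sets of 9, 9 and 5 libraries from high to low Rps2-ps13, and each set holds libraries of both genotypes.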

How the data were processed

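Hippocampal mRNA was sequenced in 23 libraries as pairs of 100-base reads with a stranded kit. The deposited files hold whole-number read counts for each gene. Per the file headers, featureCounts 1.6.2 was run with Ensembl release 90 of GRCm38 on alignments named as free of duplicates. That command counts whole gene bodies, sets no strand, and by default leaves out reads that align to several places or overlap several genes. The submitters' processing notes name HISAT2, mm10 and DESeq2 1.6.3. How ambiguous alignments were reported is not given in the sources used here.

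Symbols and transcript sequences came from GENCODE for GRCm38, with 52403 of 52636 genes matched. Genes were kept by filterByExpr (minimum count 10), scaled by TMM and tested in edgeR 4.0.16 (R 4.3.3) with 4 group means and 7 contrasts, two-sided, adjusted over all 17788 genes. Log2 ratios to the parent (prior count 2) were tested with limma 3.58.1 over 114 pairs. DESeq2 1.42.0 was an alternative. Tests were checked on simulated data. Groups came from the genotype and condition labels. Named members were the 12 with the lowest p among those called, the 8 highest in level, the 6 highest in dispersion, those called as a pair, the 3 with the lowest p in each hypoxia comparison and the 2 nearest the count minimum. The members and lists were chosen with earlier results of these data known.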

Additional observations from a re-analysis of the deposited data

Results flagged for a closer look

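Of the groups of libraries examined for the named members and their parents, 7 held 1 library far from the rest. Chance flags about 1 in 20 such groups, and 184 were examined. Rpsa-ps10 was at 8.19 CPM in WT normoxia replicate 1, against 9.44 to 10.1 CPM in the other WT normoxia libraries. In P301S hypoxia, replicate 5 had 2.48 CPM of Rps13-ps1 (others 1.47 to 1.77), and replicate 6 had 1.71 CPM of Rpl10-ps3 (others 0.451 to 0.839), 5.95 CPM of Rpl9-ps6 (others 3.15 to 4.17) and 87.8 CPM of Rps19 (others 67.3 to 71.7). Rpl10 was at 59.5 CPM in P301S hypoxia replicate 4, against 70.7 to 75.7 CPM in the others. Rps10 was at 61.7 CPM in P301S normoxia replicate 1, against 47.7 to 50.9 CPM in the others.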

How the results depend on the processing

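With 1 library left out, the count of members that differed between P301S and WT ran from 3 to 15 in normoxia, 5 to 18 in hypoxia and 19 to 28 averaged over conditions, and the count of pairs from 9 to 14. The share of all tested genes called lower moved as well. It ran from 1.1% to 6.83% in normoxia, 0.389% to 2.7% in hypoxia and 5.55% to 10.1% averaged over conditions. For P301S over WT in normoxia the count was 5 with no filter on low counts, 4 without the 6 libraries lowest in choroid plexus markers and 1 (higher) with the length and GC trend removed, against 9. In these fits 1.4%, 1.06% and 2.06% of all genes in the fit were called lower, against 3.78%. In hypoxia the count of members was 7 with DESeq2, which gave no adjusted p for 30 of the 39 members, 1 without the 6 libraries and 5 with the trend removed, against 15. There 2.74%, 0.0501% and 1.15% of all genes in the fit were called lower, against 1.34%. Averaged over conditions the count of members was 15 with the trend removed and 17 without the 6 libraries, against 25. With DESeq2 it was 22, with no adjusted p for 8 members. In these 3 fits 5.59%, 4.46% and 9.12% of all tested genes were called lower, against 7.76%. The member pairs called were 4 without the 6 libraries, against 11. Calls among the other pairs were not counted in that fit or with 1 library left out. A general loss of calls therefore cannot be set beside these counts of pairs. Leaving out the 6 libraries also leaves fewer samples, and the cause of each other shift was not tested. The choroid plexus score as a covariate gave 9, 15 and 26 members in normoxia, in hypoxia and averaged over conditions. There 4.01%, 1.6% and 8.15% of all tested genes were called lower. The counts for hypoxia and the interaction were 0 for members in every alternative run, though DESeq2 gave no adjusted p for 27, 19 and 13 of the 39 members in P301S hypoxia over normoxia, hypoxia averaged over genotypes and the interaction. The averaged value of Rpl34-ps1, which was never called, was -0.01 and turned positive in 10 of 28 alternatives: it was 0.18 with the trend removed, 0.022 without the 6 libraries, and from -0.079 to 0.11 over the fits with 1 library left out, 8 of them positive. No other averaged genotype value of a named member or called pair changed direction in the alternatives run. Their values within 1 condition, for hypoxia and for the interaction were not compared in this way. At these depths members near the count minimum average under 1 CPM, which limits what can be detected there. No paired analysis was possible because the replicate numbers were given in accession order and pair no libraries across groups.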
